A study of Mus musculus with 32 samples.

Results

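The coagulation and complement factor genes described here are 38 genes whose proteins circulate in plasma or act on those that do. They were chosen by symbol from a list of coagulation, fibrinolysis and complement genes made by the liver, and all 38 were found among the 21880 genes of the deposited table, each on 1 row. Liver RNA of mice aged 2 and 6 months (2M and 6M) was sequenced in 4 genotypes, WT, TKO, DKO and L-*Dnm1l*–KO, with 4 libraries in each of the 8 groups and 32 in all. L-*Dnm1l*–KO mice (labelled Drp1_KO) lack *Dnm1l*, which encodes the fission protein DRP1, DKO mice lack *Mfn1* and *Mfn2*, which encode mitofusins that drive fusion, and TKO mice lack all of these genes. The floxed alleles were of mixed C57BL/6 and 129 background, and their carriers were bred to C57BL/6J albumin-Cre mice over 6 generations. Albumin-Cre, which acts in hepatocytes, deleted the alleles. In older L-*Dnm1l*–KO mice the paper reports DRP1 staining that remained in some immune cells and in vessel endothelium. Whether every other liver cell type keeps the genes was not examined here. The WT libraries are labelled Drp1_WT at both ages and served as controls for every knockout genotype, and neither the sex of single mice nor the origin of the WT libraries beyond that label is given in the sources used here.

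Hepatocytes secrete most clotting and complement proteins. In coagulation, a cascade of serine proteases converts prothrombin to thrombin, thrombin cuts fibrinogen into fibrin, and plasmin dissolves the clot. In complement, the classical, lectin and alternative pathways meet at C3, after which the terminal components assemble a pore in the target membrane. Many of these proteins are zymogens, and both systems are held in check by plasma inhibitors.

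The value used for each gene is the mean normalized count, the authors' mean over all libraries of read counts divided by size factors that correct for sequencing depth. It is 1 number per gene for the 8 groups together. It grows with the length of the gene's RNA, so levels of different genes are also given per kb. No comparison between genotypes or ages was therefore made, no error can be attached to a level, and an order of levels below is a description without a test. The total count of a library is unknown. Summed over the table the means reach 900450, and their median is 1.52.

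The libraries were strand-specific, and which strand was counted is not given in the sources used here. Mitochondrial genes bear on how the levels can be read. *mt-Nd6*, the only mRNA encoded on the light strand of mitochondrial DNA, had a mean normalized count of 30507. The 12 heavy-strand mRNAs ranged from 0.13 for *mt-Nd4l* to 6624 for *mt-Nd5*, with a median of 318. Of these 12, 6 had a mean of at least 100. Among the cytochrome oxidase subunits, which are abundant in liver, *mt-Co3* had 0.78, *mt-Co2* 2.37 and *mt-Co1* 1109. In a strand-specific library that is counted with the opposite strand setting, a gene's row holds the reads of the opposite strand in place of its own. Whether the rows here hold reads of the gene's own strand, the opposite one or both was not tested, for the factor genes as for all others, and each level is reported as the count of the gene's row and not as an amount of its mRNA.

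Markers of liver cell types were compared by the same value. *Alb*, which encodes albumin, had a mean normalized count of 4958 and ranked 26 among all genes, and the 6 hepatocyte markers found ranged upward from 68.1 for *Hnf4a* (median 208). Of 6 Kupffer cell and macrophage markers, 5 lay between 0.59 and 4.17, and *Csf1r* had 121.0, above *Hnf4a*, *Apoc3* (80.2) and *Serpina1a* (100.4) of the hepatocyte markers. Its exons share 873 bases with those of *Hmgxb3* on the opposite strand, which had 3.88. The 5 endothelial, 5 stellate and 4 cholangiocyte markers had medians of 2.33, 1.56 and 0.13. Neutrophils were represented by *S100a9* alone, at 0.13. In whole liver, fewer cells of a type and less RNA per cell cannot be told apart.

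The factor genes lay high in the table. Their median mean normalized count was 41.9, against 1.52 over all genes, and 37 of the 38 lay above the latter. Of the 38, 36 had a mean of at least 10 (94.7%, against 20.2% of all genes), 10 had a mean of at least 100, and 25 were in the top 10% of genes. The exceptions to the minimum of 10 were *Cfb*, at 4.35, and *C5ar1*, at 0.11. The 20 coagulation and fibrinolysis genes had a median of 70.3 and the 18 complement genes one of 37.1, with ranges that overlapped over most of their width. The 38 genes together took 0.50% of the sum of the means, and *C3* and the 3 fibrinogen genes made up 52.5% of that share.

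**Figure D1:**
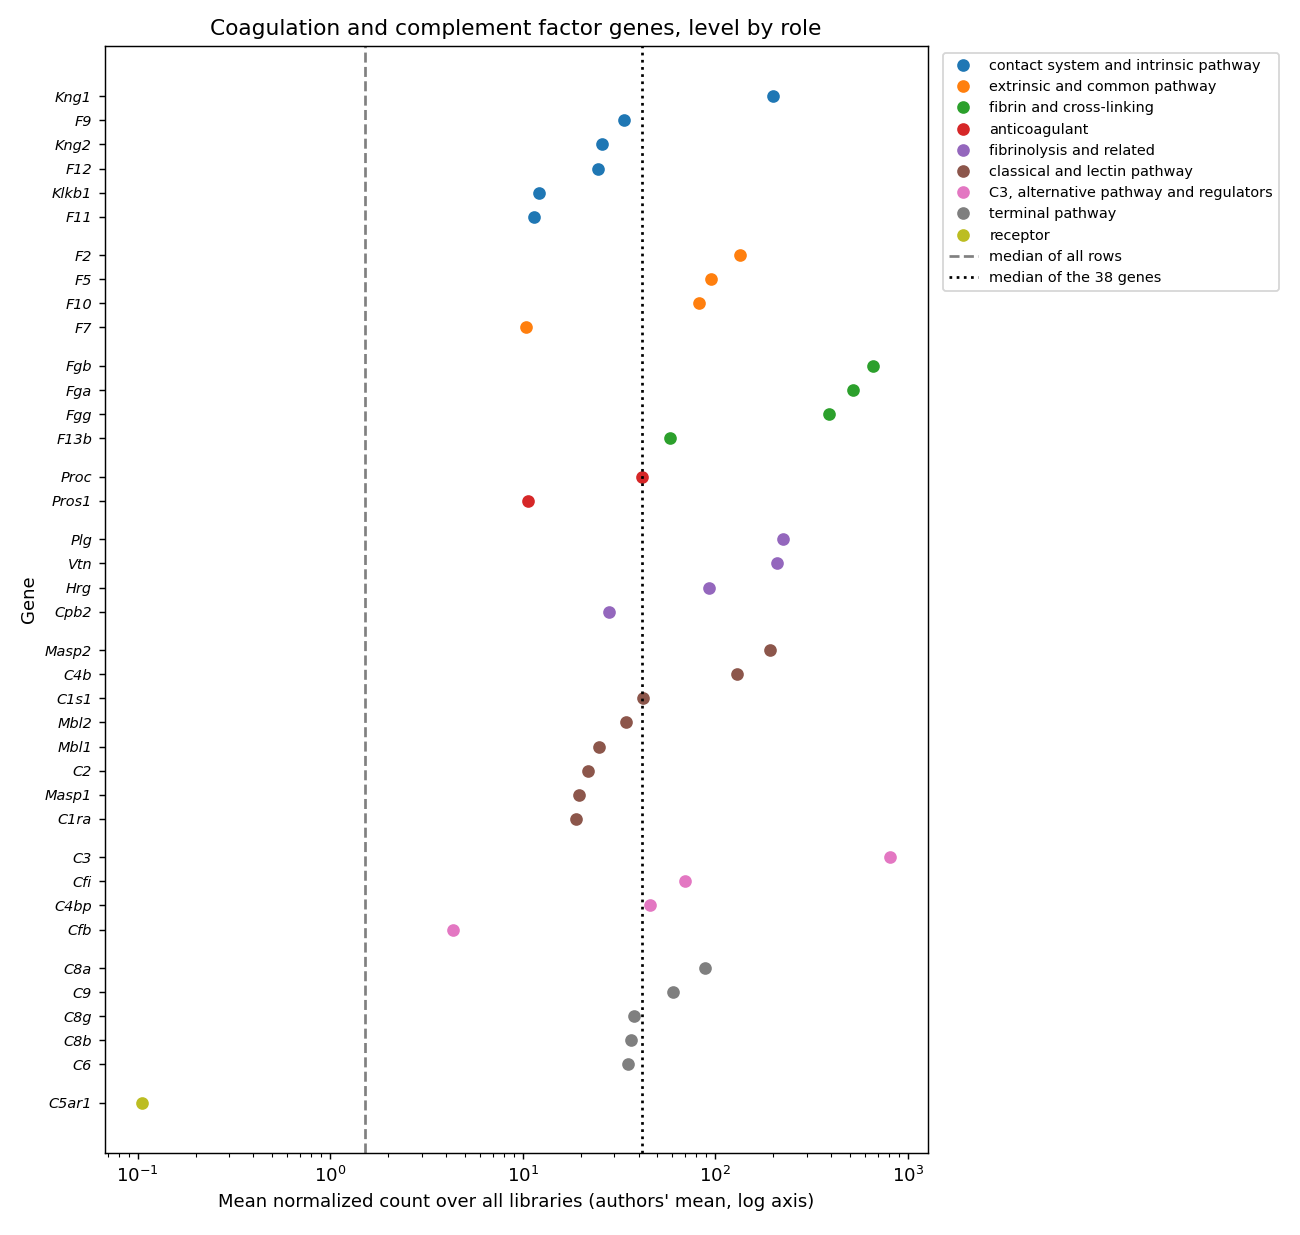
Mean normalized count of each of the 38 genes over all libraries (the authors' mean, log axis), with genes grouped and coloured by role, the dashed line at the median of all genes (1.52) and the dotted line at the median of the 38 (41.9). *C3* and the fibrinogen genes lie farthest to the right, and *C5ar1* is the only gene left of the dashed line.

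The 3 genes of fibrinogen, the soluble precursor of the fibrin clot, were the highest of the coagulation genes. *Fgb*, for the β chain, had a mean normalized count of 659, *Fga*, for the α chain, 522, and *Fgg*, for the γ chain, 393. They lie side by side on chromosome 3 of GRCm38, *Fgg* at 83007724 to 83015049, *Fga* at 83026076 to 83033627 and *Fgb*, on the other strand, at 83040141 to 83049863. Per kb of exons the 3 levels were close, with 188 for *Fgg*, 174 for *Fga* and 173 for *Fgb*, a ratio of 1.08 between the highest and the lowest. This closeness depends on the length used, since per kb of coding sequence they were 295, 221 and 457, a ratio of 2.07. *F13b*, for the carrier subunit of the factor that cross-links fibrin, lay well under them at 58.3 counts.

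In the contact system and intrinsic pathway, *Kng1*, for kininogen, the cofactor that carries prekallikrein and factor XI, was the highest of 6 genes at 198.8 counts. Its paralog *Kng2* had 25.9, a ratio of 6.44 per kb of exons in favour of *Kng1*. The proteases of this arm were lower than *Kng1*, by counts and per kb of exons. *F12*, for the factor that starts contact activation, had 24.6 counts, *Klkb1*, for prekallikrein, 12.2 and *F11* 11.4. *F9*, whose loss causes hemophilia B, had 33.8.

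Of the extrinsic and common pathways, 4 genes were measured. *F7*, for the protease that binds tissue factor, had the lowest mean normalized count of the coagulation genes, 10.4. *F10*, which lies beside it on chromosome 8 and encodes the point at which the pathways join, had 82.3, *F5*, for the cofactor of factor Xa, 95.0, and *F2*, for prothrombin, 135.2. Per kb of exons *F2* and *F10* were nearly level, at 29.4 and 30.1, while *F5*, with 7430 exonic bases, had 12.8 and *F7* 5.60. The order by counts therefore differed from that per kb, and *F7* was the lowest of the 4 by either. The order of *F2* and *F10* depends on the length used, since per kb of coding sequence they were 72.9 and 55.6, a ratio of 1.31, and per kb of the transcript with the longest coding sequence 68.0 and 43.2.

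Anticoagulants and proteins of fibrinolysis were represented by 6 genes. *Proc*, for protein C, which inactivates factors Va and VIIIa, had a mean normalized count of 41.5, and *Pros1*, for its cofactor protein S, 10.6. *Plg*, for plasminogen, the zymogen of plasmin, had 225. *Vtn*, for vitronectin, an adhesion protein that stabilizes plasminogen activator inhibitor, had 209.5, *Hrg*, for histidine-rich glycoprotein, 93.3, and *Cpb2*, for the carboxypeptidase that slows fibrinolysis, 28.0. Per kb of exons *Vtn*, at 103, was the highest of these, ahead of *Plg* at 60.7.

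*C3* (ENSMUSG00000024164; chromosome 17, 57203970 to 57228136) led the 38 genes, at a mean normalized count of 812 and rank 141 among all genes. With 5143 exonic bases it ranked 4 per kb, at 158. The other genes around C3 were lower. *Cfi*, for the protease that cuts C3b and C4b, had 70.1 counts, and *C4bp*, for the protein that binds C4b and serves as its cofactor, 46.2. *Cfb*, for the protease of the alternative pathway convertase, had 4.35 and ranked 7010.

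In the classical and lectin pathways, *C4b* had a mean normalized count of 129, *C1s1* 42.3, *C2* 21.8 and *C1ra* 18.9. *C1ra* and *C1s1* encode the proteases of the C1 complex, and *C1s1* was higher by a ratio of 2.13 per kb of exons. The lectins that bind microbial sugars, *Mbl2* and *Mbl1*, had 34.3 and 25.1. Of their associated proteases, *Masp1* had 19.7 and *Masp2* 194. The latter is the second highest gene of the complement group, and it is also the gene most covered by another gene on the opposite strand.

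The terminal components were the most even of the groups with more than 1 gene. Their mean normalized counts were 88.7 for *C8a*, 60.8 for *C9*, the pore-forming subunit, 37.7 for *C8g*, 36.5 for *C8b* and 35.2 for *C6*. *C8a*, *C8b* and *C8g* encode the chains of the C8 complex, and per kb of exons *C8g* and *C8a* were close, at 25.2 and 24.4, with *C8b* at 14.3. Per kb of coding sequence they were 62.2, 50.4 and 20.6, so that *C8g* exceeded *C8b* by a ratio of 3.01 instead of 1.76. *C5ar1*, the receptor for the C5a fragment, is known from neutrophils and macrophages. At 0.11 counts it was the lowest of the 38 genes and lay above only 11.6% of all genes, in the range of *S100a9* and of the cholangiocyte markers. It lay under all 6 Kupffer cell and macrophage markers, of which the lowest had 0.59.

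**Figure D2:**
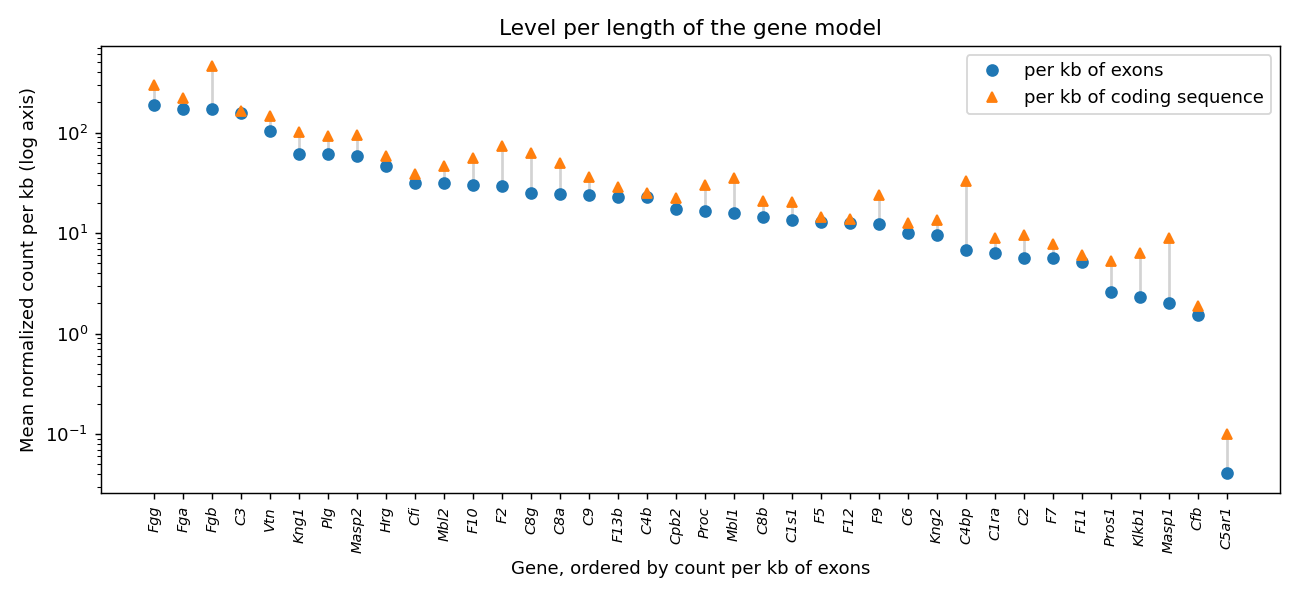
Mean normalized count per kb of merged exons (circles) and per kb of coding sequence (triangles) for the 38 genes on a log axis, ordered by the former. The fibrinogen genes and *C3* lead by exons, at 158 to 188 per kb, and *Fgb*, *C4bp* and *Masp1* show wide gaps between the measures.

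Of the 38 genes, 6 have exons that overlap exons of another gene of the table on the opposite strand, by the GENCODE M21 annotation of GRCm38. In 5 of the 6 the opposite-strand gene had the higher mean normalized count. *Plg* shares 420 exonic bases with *Slc22a3*, for an organic cation transporter, which had 15110 counts or 67.1 times the value of *Plg*. *Fgg* shares 115 with the noncoding *Gm30097*, which had 9162, a ratio of 23.3. *C1s1* shares 576 with the antisense gene *Gm16567*, all the exonic bases of the latter, and the values were 42.3 and 4431. *F5* shares 262 with the noncoding *Gm16548*, at 225 counts. *C2* shares 161 with *Zbtb12*, and here the counts were close, at 21.8 and 19.5. Per kb of exons *Zbtb12* was the higher, at 9.66 against 5.63 for *C2*, so this order depends on the measure.

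*Masp2* shares 1817 of its 3307 exonic bases, or 54.9%, with *Tardbp*, for an RNA-binding protein of the nucleus, which had a mean normalized count of 3096. *Masp2* was 29.2 times higher than *Masp1* per kb of exons and 10.5 times higher per kb of coding sequence. How many of its reads come from the shared bases cannot be told from 1 mean per gene. The 6 with such a partner had a median of 144 counts, and the 32 without one a median of 37.1.

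The shared coding stretches of *Fgg*, *Plg* and *F5* are shown because a read from them lies on both genes, and only its strand tells the genes apart. They are the bases of GENCODE transcripts on GRCm38, 5′ to 3′ on the plus strand, which codes for the factor. *Fgg* is given at chr3:83008374-83008488 in exon 3, *Plg* at chr17:12418966-12419124 in exon 19, the last, and *F5* at chr1:164151963-164152120 in exon 1, where the run opens with the start codon. All bases are in lower case, since the whole run is shared.
Fgg: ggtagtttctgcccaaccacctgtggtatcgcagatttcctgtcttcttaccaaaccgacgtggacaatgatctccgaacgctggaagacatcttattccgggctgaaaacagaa
Plg: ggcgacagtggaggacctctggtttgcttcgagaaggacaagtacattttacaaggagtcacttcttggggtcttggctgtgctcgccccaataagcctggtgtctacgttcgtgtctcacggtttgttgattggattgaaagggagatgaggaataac
F5: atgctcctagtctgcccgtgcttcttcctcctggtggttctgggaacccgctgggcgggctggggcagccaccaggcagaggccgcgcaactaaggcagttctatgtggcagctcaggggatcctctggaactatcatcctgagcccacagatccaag

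**Figure D3:**
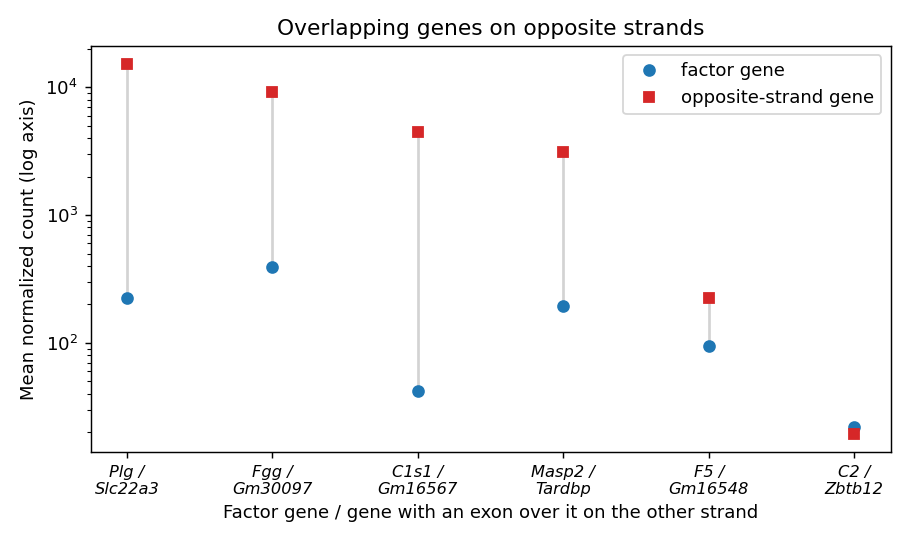
Mean normalized count (log axis) of the 6 factor genes that have exons over those of an opposite-strand gene (circles) and of that gene (squares). In these counts, which are not corrected for length, the opposite-strand gene is higher in 5 pairs. The gap is widest for *C1s1* and *Gm16567* (42.3 and 4431), and the counts of *C2* and *Zbtb12* are close.

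Other genes lie over the factor genes on the same strand. *Gm20547*, a coding gene model that spans *Cfb* and *C2* on chromosome 17, shares 2246 of the 2825 exonic bases of *Cfb* (79.5%) and 42.8% of those of *C2*. *Gm45753* shares 43.2% of those of *Klkb1*. Neither model is among the rows analysed here. A read on exons of both genes has no single owner, and counting that leaves out such reads would leave fewer for *Cfb*, *C2* and *Klkb1*. Whether this was done, and its part in the low value of *Cfb*, was not tested.

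Related copies elsewhere in the genome bear on 5 of the values. A read of 75 bases, the length sequenced, cannot be placed when the same 75 bases occur in another gene. Of such windows in the transcript with the longest coding sequence, 40.1% for *C1ra* also occur in *C1rb*, 23.5% for *C4b* in *C4a*, 14.7% for *C1s1* in *C1s2* and 10.6% for *Kng1* in *Kng2*. Of the copies, *C1rb* and *C1s2* were low, with mean normalized counts of 0.092 and 0.053, while *C4a* had 18.2 and *Kng2* 25.9. Among the 38 genes, 26 share no window with any other gene, the fibrinogen genes *Fga* and *Fgb*, *C3*, *Vtn*, *F2* and the terminal components included.

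**Figure D4:**
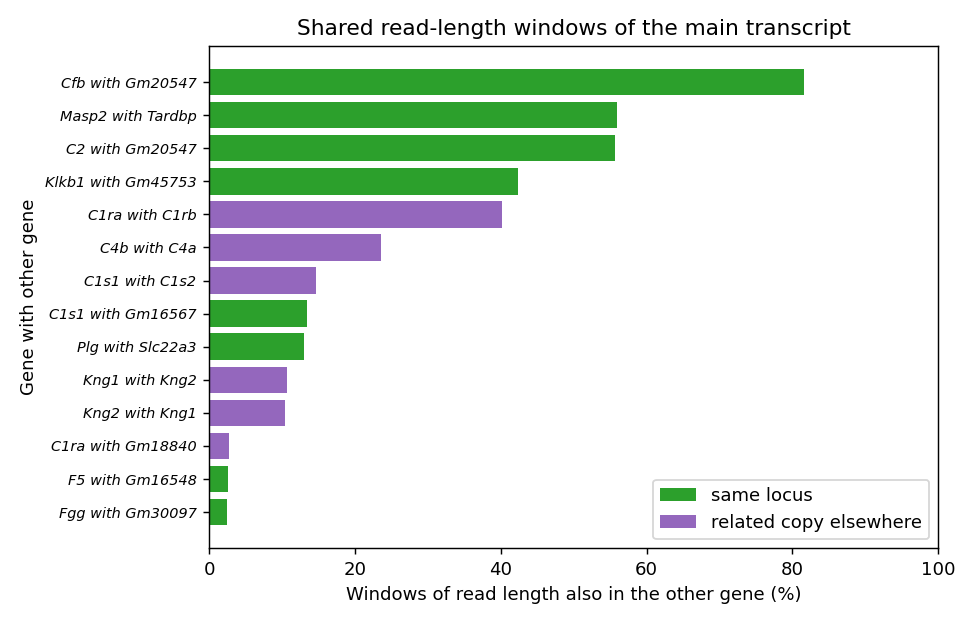
Percent of 75-base windows of each factor gene's main transcript that also occur in the other gene named, for genes at the same locus on either strand (green) and for related copies elsewhere (purple). *Cfb* with *Gm20547* (81.6%) and *Masp2* with *Tardbp* (56.0%) are among the highest, and *C1ra* with *C1rb* (40.1%) leads the related copies.

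A further list of 52 coagulation and complement genes, of inhibitors, receptors and factors made also by other cells, held 49 genes of the table, and 3 (*Serpina5*, *Fcnb* and *A2m*) were not analysed here. Their median mean normalized count was 2.59, 20 of the 49 had a mean of at least 10 and 15 a mean under 1. Plasma proteins of hepatocytes led this list, with 813 for *Ahsg*, the fetuin, and 550 for *Pzp*, a protease inhibitor. *Serpinc1*, for antithrombin, had 158.6, and *Hc*, for C5, 112. All 4 of these genes have exons over those of an opposite-strand gene with a higher value. Of genes known from endothelium, platelets or macrophages, *Vwf* had 0.42 and *F13a1* 0.090, under the median of all genes (1.52), while *F8* had 1.89 and *C1qa*, *C1qb* and *C1qc* 1.51 to 2.38, near that median. These genes were named after their values were seen. *C7*, for the terminal component between C6 and C8, had 0.13, against 35.2 for *C6*.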

How the data were processed

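Poly(A) RNA of 32 livers was made into strand-specific libraries and read as single-end 75-base reads. By the methods and the submitters' processing notes, the authors mapped reads with HISAT2 2.1.0.13 to GRCm38, obtained gene counts from HTSeq-counts and then ran DESeq2. The signal deposited by the authors is the mean normalized count, 1 pooled mean per gene. The remaining deposited columns hold the authors' own comparisons of the knockout genotypes with WT at each age (log2 fold changes, standard errors, Wald statistics, p-values and adjusted p-values), and none was used. Values per library were not analysed here, so the planned tests between groups were not made.

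Lengths, positions and overlaps came from merged exons of GENCODE M21 on GRCm38, a later annotation than that of the counting, which lists 21833 of the table's identifiers and lacks 47. Coding length was that of the transcript with the longest coding sequence. The length in the RefSeq gene table is a genomic span and was not used. Windows were compared on both strands with all GENCODE M21 transcripts. Every member is named, and genes outside the members are named only from fixed lists or as overlapping or related genes. The members and lists were chosen with earlier results of these data known. Python 3.11.15, numpy 2.4.6 and pandas 2.3.3 were used, and overlap and window counts were tested on simulated data.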

Additional observations from a re-analysis of the deposited data

How the results depend on the processing

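The median mean normalized count of the 38 genes, 41.9, was 37.1 over the 32 genes without an opposite-strand exon partner in the table, and 39.6 over the 30 with no exon partner on either strand, an alternative chosen after seeing the data. Their median percentile was 91.7 among all genes, 85.5 among the 12419 genes with a mean of at least 1 (37 members) and 60.4 among the 4423 with a mean of at least 10 (36 members). The median of the further list was 2.59, and 2.37 over its 40 genes without an opposite-strand partner. Of the 10 highest genes per kb of exons, 8 were also among the 10 highest per kb of coding sequence and 9 per kb of the transcript with the longest coding sequence, the latter also chosen after seeing the data, under which the ratio between the fibrinogen genes was 1.30. Each symbol is on 1 row, so keeping such genes changed nothing. Settings that need values per library (DESeq2 size factors, no filter, leaving out replicates) were not run. No paired analysis was possible because the values used are 1 mean over all libraries. With no value per library, neither depth nor replicate error limits can be stated.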
